A study of Homo sapiens with 15 samples.

Results

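All 12 treated tumours of the series were set as 1 body against the 3 tumours given PBS, to find the genes that differed in the same direction whichever treatment was used. The 12 treated libraries came from 4 groups of 3, and each group weighed the same in the comparison. They are 12 of 15 libraries in all. Of 13085 genes tested, 7312 (55.9%) had 1 sign of change against PBS in all 4 treated groups. Of these, 3774 (28.8% of the genes tested) were higher and 3538 (27% of the genes tested) were lower. The 4 changes share the 3 PBS libraries, so a departure of PBS alone gives a gene the same sign in every group.

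The tumours grew from MM.1S, an established human multiple myeloma cell line that carried a green fluorescent protein and a luciferase. Every mouse was SCID-beige, a strain with severely impaired lymphocytes, and received the cells by vein. The bortezomib group had 0.25 mg/kg into the peritoneum once a week, and the elesclomol group had 25 mg/kg under the skin. The combination group had both drugs from the start, and the delayed combination group had bortezomib with elesclomol begun 14 days after inclusion. The control libraries are labelled PBS, while the protocol states a weekly intravenous saline injection, so the route of injection differed between all treated groups and PBS and cannot be told apart from treatment. Each group had 5 mice, of which 3 tumours were sequenced, and RNA came from marrow flushed out of the femurs at paralysis. How long each mouse had been treated is not stated.

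Bortezomib blocks the proteasome, which degrades proteins tagged with ubiquitin, and plasma cells, which make large amounts of antibody, are known for their dependence on it. Elesclomol carries copper into cells and their mitochondria. A pathway that recurs below is the immediate early response: growth factors and stress act through MAP kinases on factors already bound at DNA, such as SRF and CREB, and within minutes switch on JUN, FOS, EGR1 and their relatives. These are transcription factors with short-lived messages, and phosphatases of the DUSP family, induced in the same wave, turn the kinases off again.

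Counts per library summed to 5458022 to 13161087 in treated tumours and 4500326 to 6287708 in PBS tumours. Levels are given as CPM, counts scaled to library size. The marrow expressed plasma cell and myeloma genes throughout: the 12 markers summed to 14219 to 17366 CPM in treated and 15152 to 15627 CPM in PBS libraries, and CD27 was the 1 marker at 0 in all PBS libraries. Among markers of cells before the plasma cell, PAX5 and CD22 were at 0 in all PBS libraries. The libraries differed along the GC content of the genes. Across genes, a library's deviation from the mean correlated with GC content at -0.2995 to 0.498 in treated libraries, with the 3 highest values in bortezomib 1, combination 1 and delayed combination 2, and at -0.337 to -0.281 in PBS libraries. In bulk tissue, fewer cells of a type and less RNA per cell cannot be told apart.

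The test of the mean of the 4 treated groups against PBS left 3 genes past an adjusted p of 0.05, which is 0.0229% of the genes tested. NXPE3, which encodes a protein with a neurexophilin domain, rose (0.00764% of the genes tested), and IER2 and NFKBIZ fell (0.0153% of the genes tested). IER2 encodes a small nuclear protein of the immediate early response, and NFKBIZ encodes I-kappa-B-zeta, a nuclear cofactor of NF-kappaB that NF-kappaB itself induces. At an unadjusted p under 0.05 there were 1827 genes (14%), 1002 higher (7.66%) and 825 lower (6.3%). Adjusted p-values come from edgeR's quasi-likelihood F test and were adjusted by Benjamini-Hochberg over all genes tested. Nothing says that the libraries of a group were independent beyond coming from separate tumours, and the p-values measure only the spread between them.

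**Figure D1:**
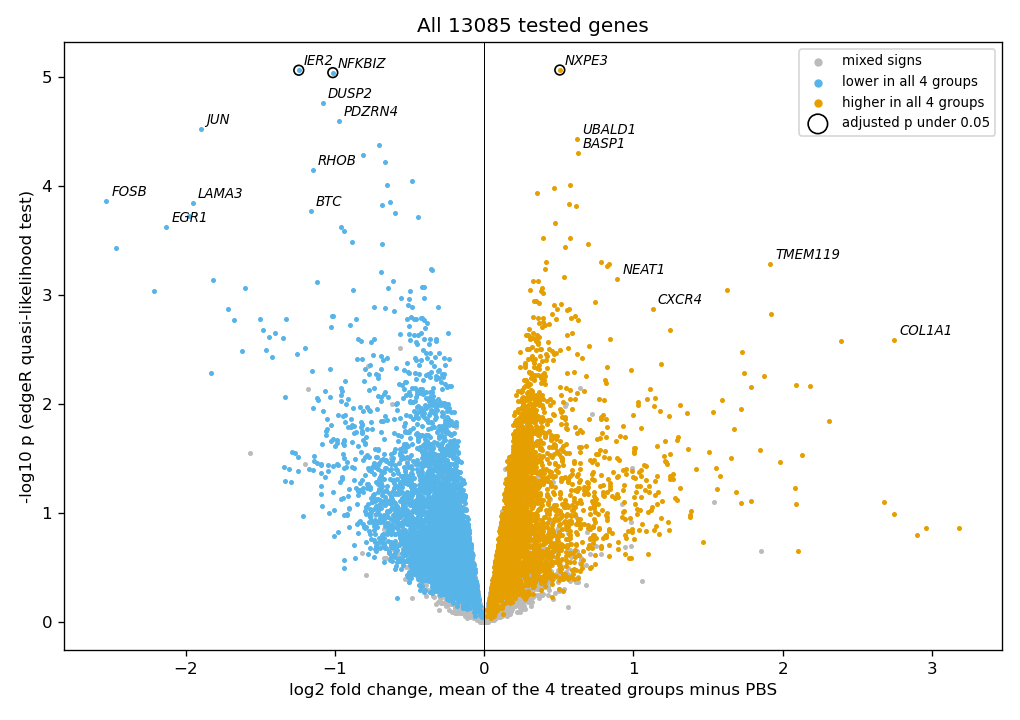
Each point is a gene, with its log2 fold change (mean of the 4 treated groups minus PBS) on the horizontal axis and -log10 of its p-value on the vertical axis. Colours mark genes higher in all 4 groups, lower in all 4 groups or of mixed sign, and circles mark the 3 genes past the threshold, NXPE3 to the right of 0 and IER2 and NFKBIZ to the left of it.

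IER2 (ENSG00000160888) had 15.1, 9.14 and 11.3 CPM in the bortezomib libraries, 9.14, 7.42 and 6.70 CPM with elesclomol, 13.4, 7.52 and 6.78 CPM with the combination and 5.52, 7.75 and 8.51 CPM with the delayed combination, against 17.2, 22.4 and 23.4 CPM with PBS. No treated library reached the lowest PBS library. The mean log2 change was -1.24 ± 0.19 (SE, 12 against 3 libraries, edgeR adjusted p = 0.0402). By group it ran from -0.82 ± 0.25 with bortezomib to -1.54 ± 0.25 with the delayed combination. NFKBIZ (ENSG00000144802) had 23.5, 36.6 and 23.2 CPM with bortezomib, 25.3, 30.4 and 24.8 CPM with elesclomol, 19.3, 23.9 and 15.4 CPM with the combination and 19.5, 15.7 and 13.2 CPM with the delayed combination, against 53.05, 42.98 and 37.7 CPM with PBS. The groups did not overlap, although bortezomib 2 lay just under PBS 3. Its mean log2 change was -1.01 ± 0.15 (edgeR adjusted p = 0.0402), with both groups that combined the drugs further below PBS than both single drugs. NXPE3 (ENSG00000144815) had 482, 564 and 575 CPM with bortezomib, 672, 738 and 675 CPM with elesclomol, 564, 541 and 566 CPM with the combination and 553, 492 and 536 CPM with the delayed combination, against 429, 389 and 399 CPM with PBS. All 12 treated libraries were above all 3 PBS libraries, and the elesclomol libraries were the highest. The mean log2 change was 0.51 ± 0.08 (edgeR adjusted p = 0.0402). The differences among the 4 treated groups did not pass for any of the 3 genes (adjusted p = 0.744 for IER2, 0.448 for NFKBIZ and 0.412 for NXPE3). Leaving out any single PBS library raised the adjusted p of these genes to between 0.274 and 0.424, and a test of a change beyond 1.5-fold called 0 genes by edgeR (107 at an unadjusted p under 0.05).

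The DNA just before the start of these 3 genes is shown because 2 of them belong to pathways with known promoter motifs. The sequences are the 250 bases before the start on the gene's strand, from RefSeq on GRCh38.p14, all on the plus strand. IER2 at chr19:13150161-13150410 has a CRE core, TGACG on either strand, in capitals. NFKBIZ at chr3:101827740-101827989 has in capitals a match to the NF-kappaB motif. NXPE3 at chr3:101778961-101779210 has in capitals a match to the EGR motif GCGNGGGCG, again on either strand.
IER2: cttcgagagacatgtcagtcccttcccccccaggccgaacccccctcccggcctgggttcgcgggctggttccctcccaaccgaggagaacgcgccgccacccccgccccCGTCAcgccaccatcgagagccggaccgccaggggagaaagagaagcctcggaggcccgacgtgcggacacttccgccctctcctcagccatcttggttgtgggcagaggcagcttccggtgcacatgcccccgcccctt
NFKBIZ: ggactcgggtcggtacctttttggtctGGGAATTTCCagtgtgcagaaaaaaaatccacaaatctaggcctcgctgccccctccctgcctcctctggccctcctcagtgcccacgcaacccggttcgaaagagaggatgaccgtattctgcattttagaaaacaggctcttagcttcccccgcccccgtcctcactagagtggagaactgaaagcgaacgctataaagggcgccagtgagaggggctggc
NXPE3: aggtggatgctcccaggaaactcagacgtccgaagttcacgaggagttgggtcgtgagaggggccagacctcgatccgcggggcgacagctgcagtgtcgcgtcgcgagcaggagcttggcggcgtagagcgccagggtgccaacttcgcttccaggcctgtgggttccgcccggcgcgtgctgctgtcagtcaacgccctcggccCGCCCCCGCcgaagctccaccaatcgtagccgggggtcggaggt
Such letters are common. The CRE core occurs in 30.8% of the 9615 promoters of tested genes with a RefSeq entry (21.7% of all 27305), the NF-kappaB motif in 11.4% (9.57% of all) and the EGR motif in 13.7% (8.25% of all). The full CRE, TGACGTCA, contains the core and occurs in 2.99% of the promoters of tested genes, the AP-1 site TGANTCA in 3.54% and the SRF site, the CArG box, in 0.998%. All motifs were searched on both strands, and a match is a description of the letters alone.

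NXPE3 and NFKBIZ are also neighbours: in the gene order of RefSeq on GRCh38.p14 they follow each other on chromosome 3 with no gene between them. The gene before NXPE3, CEP97, a centriole protein, had a log2 change of -0.21 ± 0.26 (adjusted p = 0.684), and its libraries overlapped. This neighbourhood was looked up after the 3 genes were known.

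**Figure D2:**
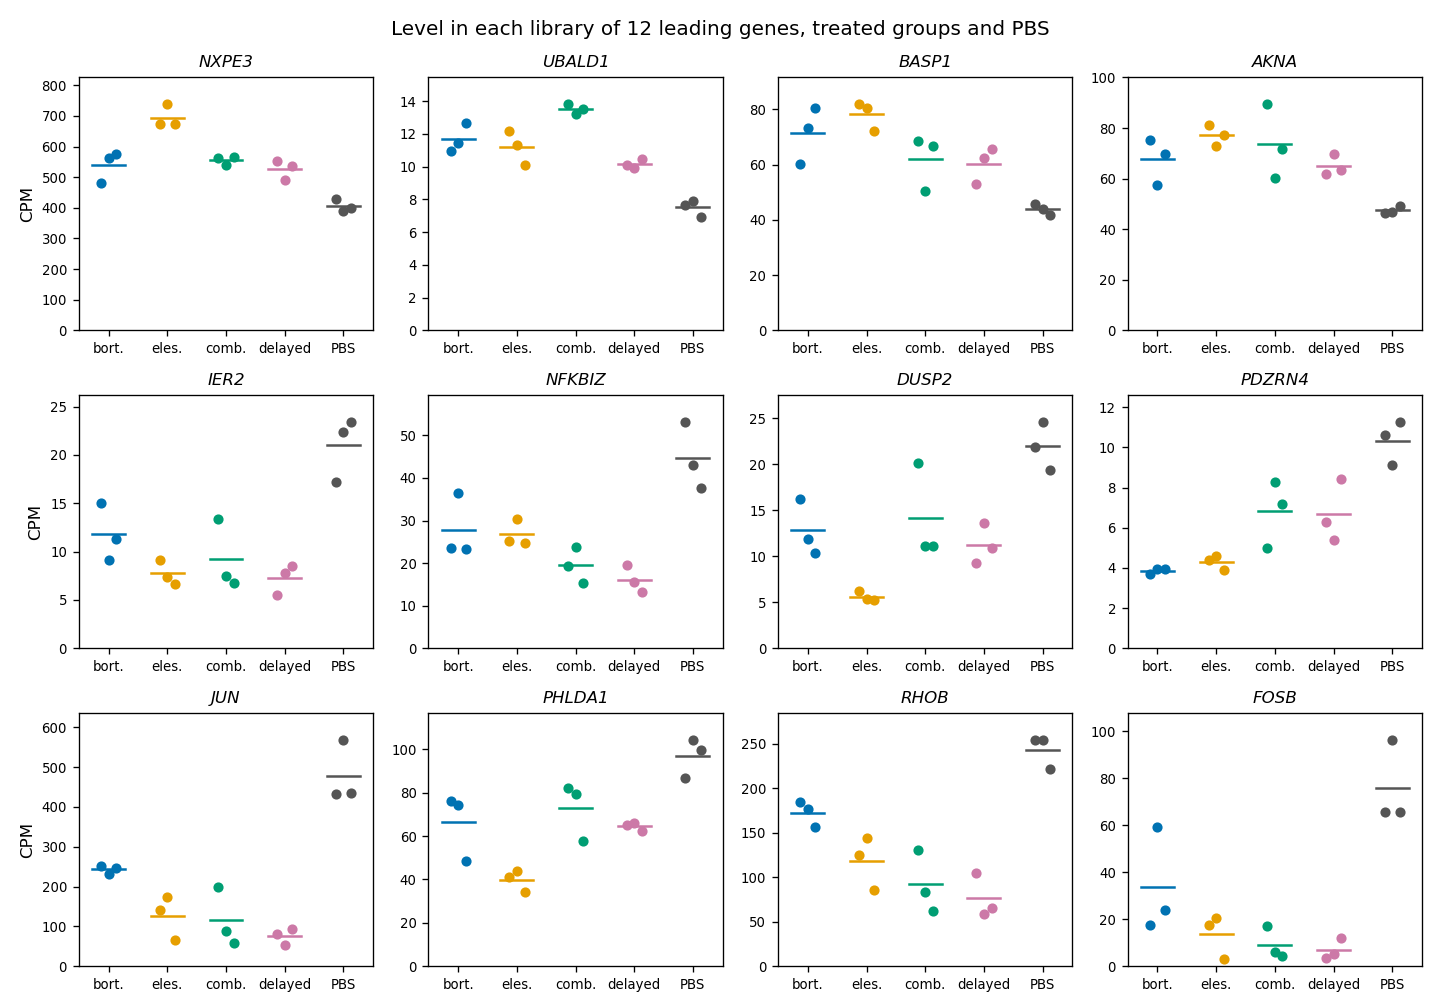
The vertical axes give CPM from 0, and each point is a library, with a line at the group mean (n = 3 each). The treated groups bortezomib (bort.), elesclomol (eles.), combination (comb.) and delayed combination (delayed) stand left of PBS. In the upper row the treated libraries lie above PBS, and in the lower 2 rows they lie below it, with a slight overlap for DUSP2, where combination 1 reached 20.1 CPM against 19.4 CPM in PBS 3.

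The 10 lower genes that came closest to the threshold without passing it were led by DUSP2, a nuclear phosphatase that inactivates MAP kinases. It had 5.23, 10.99 and 20.1 CPM as the lowest, median and highest of the 12 treated libraries, against 21.9, 24.5 and 19.4 CPM in the PBS libraries (log2 change -1.08 ± 0.18, edgeR adjusted p = 0.057). The elesclomol libraries were the lowest of all, at 6.25, 5.32 and 5.23 CPM. PHLDA1, a gene that growth factor signals induce, had 34.5, 63.7 and 82.1 CPM as lowest, median and highest in treated libraries and 86.7, 104 and 99.7 CPM in PBS libraries (-0.71 ± 0.12, adjusted p = 0.0684), with no overlap. RHOB encodes a small GTPase of the cytoskeleton and endosomes whose message is itself induced quickly. It had 185, 176 and 157 CPM with bortezomib, 125, 144 and 85.6 CPM with elesclomol, 131, 83.4 and 62.2 CPM with the combination and 105, 58.96 and 65.8 CPM with the delayed combination, against 254, 254 and 222 CPM with PBS (-1.15 ± 0.20, adjusted p = 0.0777).

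Other genes of this set have different roles. PDZRN4, a ubiquitin ligase family member with PDZ domains, had 3.68, 4.80 and 8.43 CPM in treated libraries (lowest, median, highest) and 10.6, 9.14 and 11.3 CPM in PBS libraries (-0.98 ± 0.16, adjusted p = 0.0653). Its bortezomib and elesclomol libraries, at 3.68 to 4.62 CPM, lay below those of the combination and the delayed combination, at 4.97 to 8.43 CPM. AKAP6, an anchor for protein kinase A, had 3.83, 5.90 and 6.61 CPM in treated and 11.5, 9.45 and 9.52 CPM in PBS libraries (-0.82 ± 0.15, adjusted p = 0.0684). HDAC9, a class IIa histone deacetylase, had a log2 change of -0.67 ± 0.12 (adjusted p = 0.0729), with an overlap between groups. H3F3B encodes histone H3.3, which is placed into chromatin outside replication. It had 125, 166 and 185 CPM in treated and 230.3, 221 and 214 CPM in PBS libraries (-0.48 ± 0.09, adjusted p = 0.0855), a small difference with no overlap, and since its family has many near copies the count is uncertain. HSPBAP1, which encodes a partner of the chaperone HSPB1, had a log2 change of -0.65 ± 0.12 (adjusted p = 0.0855), and FRMD6, a Hippo pathway protein given in every case, one of -0.63 ± 0.12 (adjusted p = 0.0879). After a correction of all libraries for the GC content and length of genes, the log2 changes of AKAP6, HDAC9 and FRMD6 were nearer to 0, at -0.52 ± 0.18, -0.41 ± 0.19 and -0.42 ± 0.13 (adjusted p = 0.349, 0.443 and 0.306). PHLDA1 and HSPBAP1 were then at -0.61 ± 0.14 and -0.52 ± 0.11 (adjusted p = 0.145 and 0.0830).

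The immediate early genes had the lowest median change of the 44 lists. Of 20 tested, 13 were lower and 3 higher in all 4 treated groups (27% and 28.8% of all genes), and 1, IER2, passed the test. The 12 treated and 3 PBS libraries did not overlap for 5 of them, all lower, against 1.54% of all genes in that direction (2.79%, 365 genes, in either direction). The list's median log2 change was -0.92, against 0.01 over all genes. The members and this list were chosen with results of these data known.

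JUN, a subunit of the factor AP-1, had 251, 233 and 246 CPM with bortezomib, 140.3, 173 and 66.3 CPM with elesclomol, 199.8, 88.1 and 57.6 CPM with the combination and 79.9, 54.8 and 93.1 CPM with the delayed combination, against 433, 567 and 434 CPM with PBS. The highest treated library was at 251 CPM and the lowest PBS library at 433 CPM, and the log2 change was -1.90 ± 0.29 (edgeR adjusted p = 0.0653). FOSB, a partner of JUN in AP-1, had 3.04, 14.6 and 59.3 CPM as lowest, median and highest of the treated libraries and 65.7, 96.2 and 65.8 CPM in PBS libraries (-2.53 ± 0.46, adjusted p = 0.0879). Of the 20 genes FOSB had the lowest log2 change, and bortezomib 2, at 59.3 CPM, came nearest to PBS. EGR1, a zinc finger factor, had 41.3, 46.9 and 36.4 CPM with bortezomib, 14.5, 17.9 and 2.92 CPM with elesclomol, 40.7, 13.1 and 6.49 CPM with the combination and 7.61, 8.11 and 14.1 CPM with the delayed combination, against 74.3, 93.7 and 64.7 CPM with PBS (-2.13 ± 0.41, adjusted p = 0.105). ATF3, a stress-induced factor, was the fifth that did not overlap, at 1.95, 4.36 and 7.13 CPM in treated and 7.45, 11.6 and 7.96 CPM in PBS libraries (-1.02 ± 0.27, adjusted p = 0.208).

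The promoters of FOSB and EGR1 are shown for comparison with IER2. FOSB at chr19:45467746-45467995 has a CRE core in capitals. EGR1 at chr5:138465229-138465478 has in capitals 2 CRE cores, 2 CArG boxes to which SRF binds, and 1 EGR motif (RefSeq, GRCh38.p14, plus strand for both).
FOSB: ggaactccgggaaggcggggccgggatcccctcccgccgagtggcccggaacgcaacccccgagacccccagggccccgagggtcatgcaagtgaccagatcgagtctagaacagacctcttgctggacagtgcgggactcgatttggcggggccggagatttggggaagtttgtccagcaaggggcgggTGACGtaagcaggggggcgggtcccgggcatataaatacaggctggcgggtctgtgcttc
EGR1: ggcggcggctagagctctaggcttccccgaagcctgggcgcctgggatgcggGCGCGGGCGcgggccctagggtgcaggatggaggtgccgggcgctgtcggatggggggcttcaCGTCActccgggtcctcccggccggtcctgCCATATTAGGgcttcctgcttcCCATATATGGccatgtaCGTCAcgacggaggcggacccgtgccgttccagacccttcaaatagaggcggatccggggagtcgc
Of the 15 immediate early genes with a RefSeq promoter, 9 (60%) held a CRE core, 4 an EGR motif, 1 a CArG box and 0 an NF-kappaB or AP-1 match in these 250 bases.

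Among the other immediate early genes, FOS, the classical partner of JUN, had 125, 176 and 127 CPM with bortezomib, 63.8, 72.9 and 7.67 CPM with elesclomol, 69.9, 21.2 and 9.74 CPM with the combination and 10.9, 15.3 and 30.9 CPM with the delayed combination, against 209.7, 256 and 172 CPM with PBS (-2.21 ± 0.51, adjusted p = 0.187). The overlap came from bortezomib 2, at 176 CPM, and PBS 3, at 172 CPM. KLF6, a zinc finger factor, differed in the same manner: its bortezomib libraries had 98.7, 225 and 146 CPM and overlapped PBS at 150.3, 229 and 113 CPM, while its delayed combination libraries had 65.4, 50.5 and 48.5 CPM. EGR2 and EGR3, relatives of EGR1, had log2 changes of -1.42 ± 0.42 and -1.98 ± 0.41. The nuclear receptors NR4A1 and NR4A2 had log2 changes of -1.12 ± 0.47 and -0.82 ± 0.30. The 3 higher in all 4 groups were MYC (0.23 ± 0.11), FOSL2 (0.35 ± 0.18) and KLF10 (0.14 ± 0.12), none past the threshold, and KLF2, a factor of quiescent lymphocytes, was at -0.03 ± 0.30. After the GC and length correction MYC was at 0.11 ± 0.09 and KLF2 at -0.17 ± 0.34.

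The median of this list differed by group, which is given as a description. The median log2 change was -1.41 with the delayed combination, -1.07 with the combination, -0.84 with elesclomol and -0.18 with bortezomib, and 18 of the 20 genes had a lower change with the delayed combination than with bortezomib. In the test among the 4 treated groups, 10 of the 20 had an unadjusted p under 0.05 (6.82% of all genes, 892, had one), and the smallest adjusted p was 0.429, so no gene's difference between treated groups passed. As a mean over the 20 genes of log2(CPM + 1) relative to the PBS mean, the treated libraries ran from -1.39 in elesclomol 3 to -0.102 in bortezomib 2, and the PBS libraries from -0.143 to 0.215. Bortezomib 2 was the 1 treated library above the lowest PBS library. After the GC and length correction the median was -0.95.

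**Figure D3:**
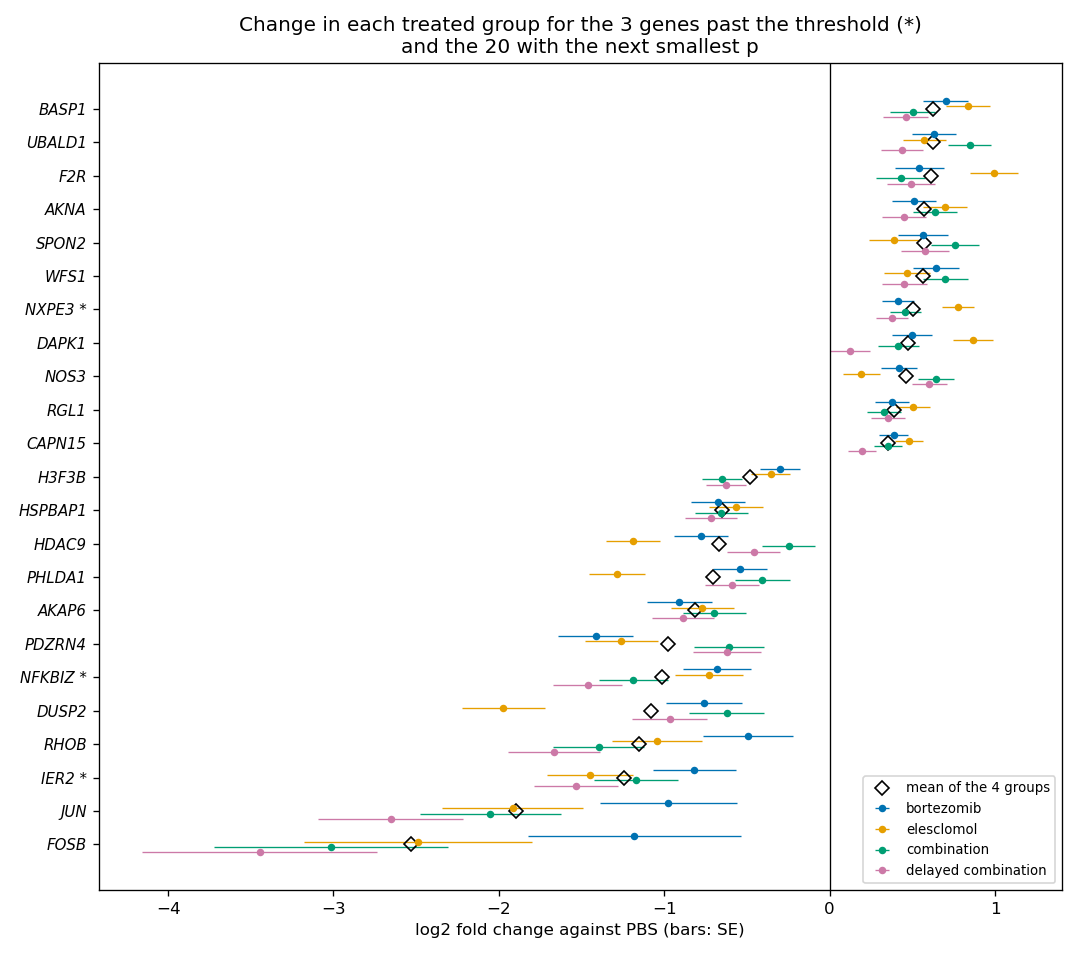
Log2 fold changes against PBS of the 3 genes past the threshold (starred) and the 20 with the next smallest p, 10 in each direction. Filled points are the 4 treated groups with SE bars, and open diamonds are their mean. The lower genes JUN, FOSB, IER2 and RHOB are nearest to 0 with bortezomib, and DUSP2, PHLDA1 and HDAC9 are furthest from 0 with elesclomol.

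The feedback genes of the MAP kinase pathway did not go 1 way. Of 16 tested, 5 were higher and 3 lower in all 4 groups (28.8% and 27% of all genes). The median log2 change was 0.11, and 0 passed. By group it was -0.25 with elesclomol, 0.17 with bortezomib, 0.16 with the combination and 0.14 with the delayed combination. DUSP2 and PHLDA1, given above, are members of this list. DUSP1, which inactivates stress-activated kinases, had 134, 189 and 134 CPM with bortezomib, 75.7, 126 and 22.2 CPM with elesclomol, 59.3, 30.97 and 18.6 CPM with the combination and 32.7, 25.4 and 36.2 CPM with the delayed combination, against 179.9, 224 and 142 CPM with PBS (-1.60 ± 0.36, adjusted p = 0.187). Bortezomib overlapped PBS, and all 6 libraries that combined the drugs lay below every PBS library. DUSP5, which acts on ERK in the nucleus, was at 0.54 ± 0.19, DUSP6, its cytoplasmic counterpart, at 0.05 ± 0.17, and ETV5, a factor downstream of ERK, at 0.79 ± 0.18 (adjusted p = 0.163).

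Nor did NFKBIZ stand for the NF-kappaB targets. Of 15 tested, 7 were higher and 4 lower in all 4 groups (28.8% and 27% of all genes). The median log2 change was 0.16, and NFKBIZ alone passed. The inhibitor NFKBIA, a quick target, was at 0.28 ± 0.10 (adjusted p = 0.31), NFKB2, a subunit of the noncanonical pathway, at 0.33 ± 0.13, and TNFAIP3, a ubiquitin-editing brake, at -0.13 ± 0.15. IL10RA, the interleukin 10 receptor, had 50.7, 91.9 and 125 CPM in treated and 60.05, 53.5 and 40.5 CPM in PBS libraries (0.84 ± 0.22, adjusted p = 0.224). After the GC and length correction NFKBIA was at 0.14 ± 0.09 and NFKB2 at 0.19 ± 0.11.

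Among the genes higher in all 4 groups, the 10 that came closest to passing after NXPE3 had log2 changes between 0.35 and 0.63. UBALD1, a protein with a ubiquitin-binding domain, had 10.9, 11.4 and 12.7 CPM with bortezomib, 12.2, 11.3 and 10.1 CPM with elesclomol, 13.8, 13.2 and 13.6 CPM with the combination and 10.1, 9.93 and 10.5 CPM with the delayed combination, against 7.68, 7.93 and 6.92 CPM with PBS (0.62 ± 0.11, edgeR adjusted p = 0.0684). The combination libraries were the highest and none overlapped PBS. BASP1, a protein bound to the inner face of the plasma membrane, had 50.5, 67.7 and 81.8 CPM as lowest, median and highest in treated and 45.8, 43.9 and 41.7 CPM in PBS libraries (0.63 ± 0.11, adjusted p = 0.0684). AKNA, an AT-hook protein of lymphocytes and centrosomes, had 57.6, 70.6 and 89.4 CPM in treated and 46.3, 46.9 and 49.2 CPM in PBS libraries (0.57 ± 0.11, adjusted p = 0.0855). The thrombin receptor F2R had 9.77, 12.6 and 18.9 CPM in treated and 8.35, 8.99 and 8.65 CPM in PBS libraries (0.61 ± 0.12, adjusted p = 0.0879). For AKNA, BASP1 and F2R the groups did not overlap.

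WFS1, a membrane protein of the endoplasmic reticulum (ER), had a log2 change of 0.57 ± 0.11 (adjusted p = 0.0879) and CAPN15, of the calpain family, one of 0.35 ± 0.07 (adjusted p = 0.0879). NOS3, a nitric oxide synthase, had a log2 change of 0.46 ± 0.09 (adjusted p = 0.0855), with an overlap at 17.1 CPM between an elesclomol library and PBS 3. The secreted protein SPON2 was at 0.57 ± 0.12 (adjusted p = 0.119) and RGL1, an exchange factor for the GTPase RAL, at 0.39 ± 0.08 (adjusted p = 0.119). DAPK1, a kinase linked to cell death, had 137, 133 and 129 CPM with elesclomol but 82.4, 72.4 and 82.4 CPM with the delayed combination, against 76.8, 69.96 and 71.3 CPM with PBS, for a mean change of 0.48 ± 0.10 (adjusted p = 0.103). After the GC and length correction CAPN15 was at 0.21 ± 0.08, NOS3 at 0.32 ± 0.10 and SPON2 at 0.42 ± 0.14 (edgeR adjusted p = 0.396, 0.309 and 0.339). UBALD1 was then at 0.48 ± 0.13, BASP1 at 0.49 ± 0.12 and WFS1 at 0.43 ± 0.10 (adjusted p = 0.248, 0.183 and 0.183). DAPK1 was at 0.40 ± 0.11 and AKNA at 0.48 ± 0.10 (adjusted p = 0.222 and 0.0817). F2R and RGL1 were at 0.64 ± 0.13 and 0.39 ± 0.09 (adjusted p = 0.0822 and 0.145). At an adjusted p under 0.1 there were 27 genes (0.206%) in all.

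The unfolded protein response and ER-associated degradation, which fold and clear secretory proteins, had a median log2 change of 0.21 over 25 tested genes. In all 4 groups 19 of them were higher and 0 lower (28.8% and 27% of all genes), and for 7 of them no treated library overlapped PBS (1.25% of all genes were higher in this way). None of the 25 passed the test. SYVN1, the ubiquitin ligase of ER-associated degradation, had 88.1, 107 and 132 CPM as lowest, median and highest in treated and 84.2, 79.9 and 80.3 CPM in PBS libraries (0.41 ± 0.09, edgeR adjusted p = 0.168). EDEM1, which hands misfolded glycoproteins to that pathway, had 475, 528 and 593 CPM in treated and 436, 445 and 445 CPM in PBS libraries (0.28 ± 0.08, adjusted p = 0.224). HSPA5, the main chaperone of the ER, had 220.3, 258 and 497 CPM in treated and 191, 212 and 207 CPM in PBS libraries (0.52 ± 0.23, adjusted p = 0.355). Its 2 highest libraries were bortezomib 3, at 497 CPM, and elesclomol 1, at 466 CPM. The folding factors CRELD2, PDIA4, HYOU1 and CANX were the other genes without overlap, with log2 changes of 0.32 ± 0.09, 0.29 ± 0.09, 0.23 ± 0.09 and 0.17 ± 0.08. HSP90B1, an ER chaperone, and DNAJC3, an inhibitor of the kinase PERK, were at 0.00 ± 0.14 and 0.05 ± 0.18. The list's median was 0.23 with bortezomib, 0.07 with elesclomol, 0.23 with the combination and 0.23 with the delayed combination, and 0.20 over the 4 groups after the GC and length correction. Single members shifted under it in both directions, CRELD2 to 0.21 ± 0.09, PDIA4 to 0.19 ± 0.09, HYOU1 to 0.12 ± 0.09, CANX to 0.29 ± 0.11, HSP90B1 to 0.12 ± 0.11 and DNAJC3 to 0.23 ± 0.13. SYVN1 went to 0.29 ± 0.08 and EDEM1 to 0.31 ± 0.08.

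**Figure D4:**
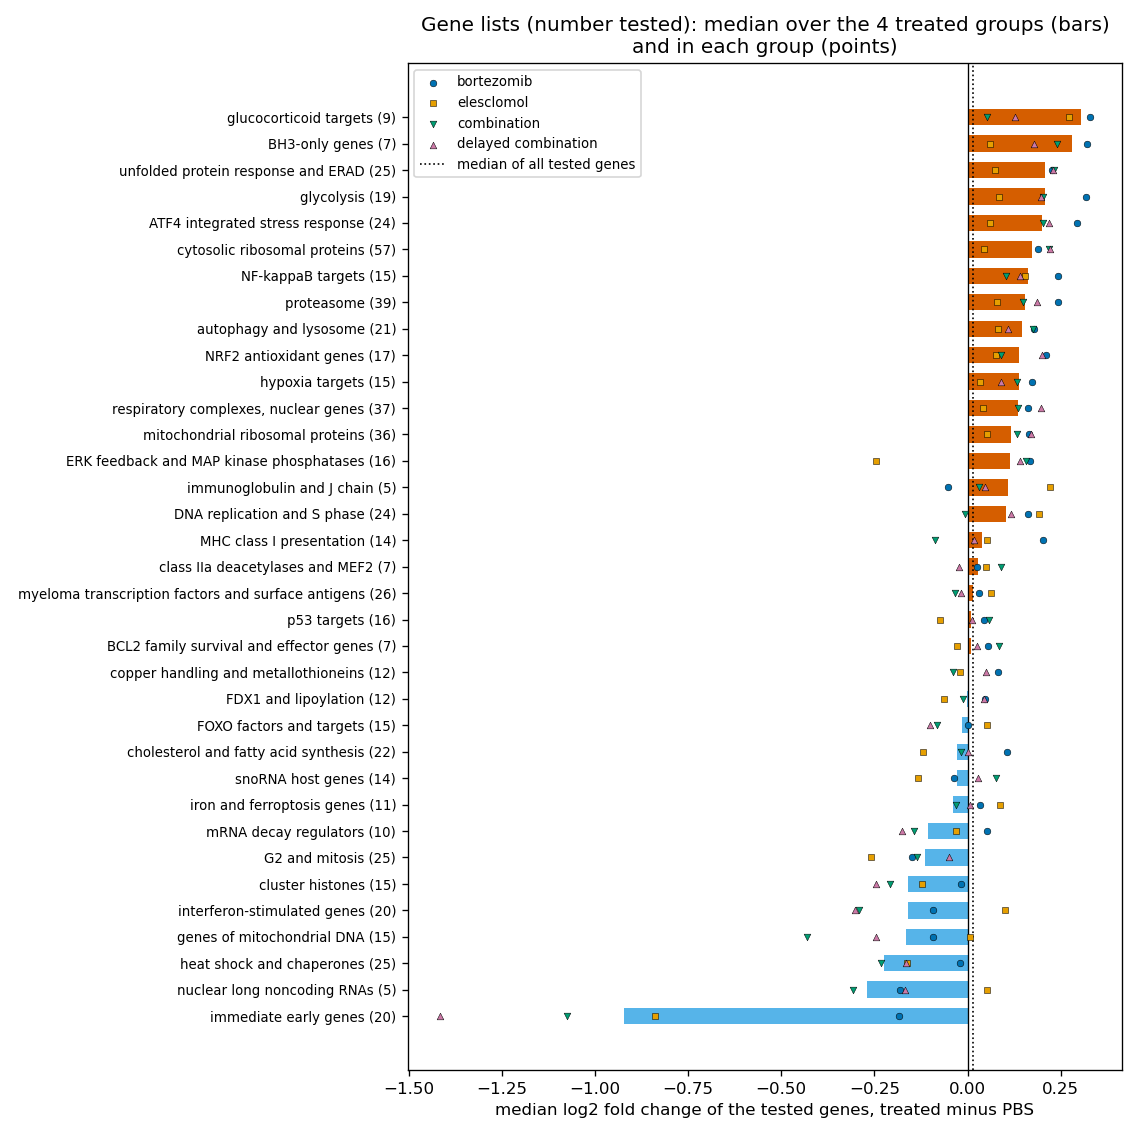
Bars give, for each pathway list with at least 5 tested genes (number in brackets), the median log2 fold change, treated minus PBS, and points give the median in each treated group. The dotted line is the median of all tested genes, 0.01. The immediate early list is at -0.92 and no other pathway list lies beyond 0.31 in either direction.

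Heat shock and chaperone genes lay on the other side. Of 25 tested, 13 were lower and 5 higher in all 4 groups (27% and 28.8% of all genes), the median was -0.22, and 0 passed. HSPA1B, the stress-inducible chaperone, had 76.7, 49.1 and 42.9 CPM with bortezomib, 10.8, 24.4 and 32.99 CPM with elesclomol, 122, 21.6 and 46.6 CPM with the combination and 19.7, 52.9 and 30.2 CPM with the delayed combination, against 105, 150.4 and 177 CPM with PBS (-1.82 ± 0.40, edgeR adjusted p = 0.184). Combination 1 overlapped PBS, and reads shared with the near-identical HSPA1A leave both uncertain. CHORDC1, a cofactor of HSP90, was the 1 lower gene of the list without overlap, at 14.9, 23.4 and 32.6 CPM in treated and 39.5, 47.1 and 45.5 CPM in PBS libraries (-0.88 ± 0.21, adjusted p = 0.187). The small chaperone HSPB1 and the mitochondrial HSPE1 were at -0.57 ± 0.15 and -0.64 ± 0.16. HSF1, the factor that drives these genes, was higher without overlap, at 0.38 ± 0.12 (adjusted p = 0.274). The median was -0.09 after the GC and length correction, a change of more than 1.5 times, while HSPB1 and HSPE1 passed under it (-0.75 ± 0.12 and -0.73 ± 0.13, adjusted p = 0.0230 and 0.0441). CHORDC1 was at -0.52 ± 0.10 (adjusted p = 0.0817) and HSF1 at 0.23 ± 0.09 under it.

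In all 4 groups, 17 of 25 genes of G2 and mitosis were lower and 0 higher (27% and 28.8% of all genes). Their median was -0.11, and 0 passed the threshold. CDK1, the kinase that starts mitosis, had 50.5, 68.7 and 84.7 CPM as lowest, median and highest in treated and 89.6, 91.4 and 95.9 CPM in PBS libraries (-0.42 ± 0.11, edgeR adjusted p = 0.208), with no overlap. After the GC and length correction it was at -0.14 ± 0.12 (adjusted p = 0.638). TTK, a spindle checkpoint kinase, was at -0.53 ± 0.20, also with no overlap. CENPF, a kinetochore protein, had 61.1, 156 and 73.1 CPM with bortezomib, 120.2, 193 and 77.8 CPM with elesclomol, 38.7, 200.1 and 125 CPM with the combination and 156, 34.5 and 148 CPM with the delayed combination, against 223, 244 and 245 CPM with PBS (-1.05 ± 0.46, adjusted p = 0.347). Its lowest values of the bortezomib, combination and delayed combination groups stood in the 3 libraries with the highest correlation with GC content. ASPM, a spindle pole protein, was at -1.06 ± 0.48 with the same libraries lowest. PLK1, AURKB and BIRC5, which also act in mitosis, were at -0.04 ± 0.20, -0.02 ± 0.13 and 0.04 ± 0.18, and at -0.17 ± 0.15, -0.16 ± 0.11 and -0.05 ± 0.15 after the correction. Histone genes, counted here from total RNA, were lower in all 4 groups in 9 of 15 and higher in 0, with a median of -0.16, or -0.28 after the correction.

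Proteasome subunits were higher in all 4 groups in 22 of 39 and lower in 2, with a median of 0.15 and 0.12 after the GC and length correction, and 0 passed. ADRM1, a ubiquitin receptor of the proteasome cap, led them (0.35 ± 0.10, edgeR adjusted p = 0.224), at 0.17 ± 0.08 after the correction. Cytosolic ribosomal proteins were higher in 37 of 57 and lower in 4 (median 0.17, or 0.13 corrected). ATF4 targets of the integrated stress response were higher in 11 of 24 and lower in 2 (median 0.20, or 0.12 corrected), led by the amino acid transporter SLC7A5 (0.63 ± 0.16). Glycolysis was higher in 15 of 19 (median 0.21, or 0.10 corrected) and the nuclear genes of the respiratory chain in 21 of 37 (median 0.14, or 0.06 corrected), both with 1 gene lower. No gene of these 5 lists passed, and the medians of ATF4 targets, glycolysis and the respiratory chain moved by over 1.5 times with the correction. Over all genes, 28.8% were higher and 27% lower in all 4 groups.

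Among BH3-only genes, which start cell death at mitochondria, 4 of 7 were higher and 1 lower in all 4 groups (28.8% and 27% of all genes). Their median was 0.28. BMF had 10.97, 16.3 and 23.8 CPM as lowest, median and highest in treated and 10.8, 7.16 and 10.7 CPM in PBS libraries (0.83 ± 0.19, edgeR adjusted p = 0.163), with no overlap. BCL2L11, which encodes BIM, had 164, 433 and 417 CPM with bortezomib, 432, 404 and 349.5 CPM with elesclomol, 192, 138 and 206 CPM with the combination and 198, 168 and 215 CPM with the delayed combination, against 183, 154 and 124 CPM with PBS (0.77 ± 0.25, adjusted p = 0.296). Bortezomib 2 and 3 and the 3 elesclomol libraries were high, and each other treated group, like bortezomib 1, overlapped PBS (adjusted p among treated groups = 0.429). PMAIP1, which encodes NOXA, was lower in all 4 groups, at 4.38, 6.49 and 10.4 CPM in treated and 10.2, 10.97 and 10.04 CPM in PBS libraries (-0.67 ± 0.17, adjusted p = 0.208), and its log2 change was -0.39 ± 0.21 after the GC and length correction (adjusted p = 0.483).

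CXCR4, the receptor that holds plasma cells in marrow, had 125, 199 and 254 CPM with bortezomib, 149, 209.5 and 112 CPM with elesclomol, 137, 76.5 and 139 CPM with the combination and 145, 129 and 116 CPM with the delayed combination, against 89.8, 58.2 and 53.7 CPM with PBS (1.13 ± 0.27, edgeR adjusted p = 0.208). Combination 2 alone overlapped PBS 1. The nuclear noncoding RNA NEAT1, which builds paraspeckles, had 595, 995 and 1334 CPM in treated and 537, 538 and 457 CPM in PBS libraries (0.89 ± 0.20, adjusted p = 0.184), with no overlap. It passed after the GC and length correction (1.08 ± 0.19, adjusted p = 0.0441). MALAT1, another RNA of the nucleus, was at -0.33 ± 0.36 (adjusted p = 0.651; -0.16 ± 0.26 corrected) and overlapped widely, at 1385, 2968 and 6806 CPM in treated and 3896, 4426 and 4549 CPM in PBS libraries. The lists for copper handling, FDX1 and protein lipoylation, p53 targets and myeloma transcription factors had medians of 0.0036, -0.0010, 0.01 and 0.01, and of -0.03, -0.02, -0.08 and 0.08 after the correction.

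A change of at least 1.5-fold in the same direction in each of the 4 groups was found in 243 genes (1.86%), 127 higher (0.971%) and 116 lower (0.887%). Of these, 66 also had no overlap between the 12 treated and the 3 PBS libraries, 23 higher and 43 lower. The levels were low. The median was 0.37 log2 CPM for the 127 higher and 1.62 for the 116 lower, against 4.25 for all tested genes. For the 23 and 43 without overlap it was 0.93 and 3.39, and 12 of the 23 were protein-coding. Apart from genes named above, the lower ones included LAMA3, a laminin chain, at 0.141, 0.438 and 0.852 CPM in treated against a mean of 1.76 ± 0.33 CPM (SD, n = 3) in PBS libraries (-1.95 ± 0.39, edgeR adjusted p = 0.0879), and BTC, which encodes the growth factor betacellulin (-1.16 ± 0.24, adjusted p = 0.0932). TGFA, another ligand of the EGF receptor, was at -0.82 ± 0.24. The higher ones included SMAP2, a regulator of the GTPase ARF, at 88.5, 122 and 205 CPM in treated against 71.1 ± 1.72 CPM (SD, n = 3) in PBS libraries (0.82 ± 0.18), and ZFP36L2, which speeds the decay of AU-rich messages (0.74 ± 0.18). TMEM119 was higher too (1.92 ± 0.44, edgeR adjusted p = 0.163) but near the floor. It had 1.46, 2.39 and 5.08 CPM as lowest, median and highest in treated and 1.35, 0.610 and 0.173 CPM in PBS libraries. LAMA3, BTC, TGFA, SMAP2 and TMEM119 were picked after their values were seen.

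COL1A1, a chain of the main collagen of connective tissue, had 17.3, 11.4 and 37.8 CPM with bortezomib, 31.5, 16.1 and 7.91 CPM with elesclomol, 16.2, 11.1 and 29.1 CPM with the combination and 9.12, 47.6 and 35.99 CPM with the delayed combination, against 3.84, 2.13 and 3.98 CPM with PBS (2.75 ± 0.73, edgeR adjusted p = 0.224), with no overlap. COL1A2 had 10.2, 16.3 and 51.9 CPM in treated and 4.06, 2.29 and 9.52 CPM in PBS libraries (1.88 ± 0.56, adjusted p = 0.27). COL3A1 was at 1.72 ± 0.57 (adjusted p = 0.297) and overlapped, with bortezomib 3 at 3.78 CPM below PBS 1 and PBS 3, at 5.19 and 4.85 CPM. Of 9 stromal and bone markers tested, 3 were higher and 2 lower in all 4 groups (28.8% and 27% of all genes). The 2 lower ones were RUNX2 (-0.40 ± 0.14) and PDGFRB (-0.47 ± 0.31), and none of the 9 markers passed. The 13 in the counts summed to 126 to 160 CPM with bortezomib, 132 to 214 CPM with elesclomol, 115 to 159 CPM with the combination and 136 to 243 CPM with the delayed combination, against 108 to 136 CPM with PBS, and none was at 0 in all PBS libraries. The part of marrow cells in these values was not tested. Erythroid markers summed to 14.9 to 344 CPM in treated libraries, the highest in elesclomol 1, and 25.1 to 35.5 CPM in PBS libraries, with HBA1 at 0 in all 15.

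No gene passed the test of differences among the 4 treated groups (0 at an adjusted p under 0.05, 892 or 6.82% at an unadjusted p under 0.05, by edgeR, against 66 by DESeq2 and 98 by limma voom). FBXO32, a ubiquitin ligase subunit that FOXO factors induce, came closest (adjusted p = 0.0878). It had 10.01, 15.5 and 16.6 CPM with bortezomib, 35.5, 25.6 and 24.96 CPM with elesclomol, 9.94, 12.6 and 13.8 CPM with the combination and 8.28, 8.93 and 8.27 CPM with the delayed combination, against 13.3, 7.16 and 7.44 CPM with PBS. Only the elesclomol libraries were all above 20 CPM. The next 4 all had an adjusted p of 0.111. FAT1, a giant cadherin, had 726, 756 and 719 CPM with elesclomol, while its other treated libraries had 445 to 573 CPM and PBS libraries 519, 503 and 516 CPM. ANKRD37, a small ankyrin protein of the hypoxia response, had 139, 163 and 143 CPM with the combination and 131, 206 and 181 CPM with the delayed combination, but 123, 109 and 87.8 CPM with bortezomib and 86.99, 80.9 and 94.5 CPM with elesclomol, against 128, 130.5 and 126 CPM with PBS. The antisense transcript H1FX-AS1, uncertain because the strand setting of the counting is not given, and AC010719.1 were the other 2.

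Genes with 1 sign in all 4 groups differed in base composition. The median GC content of the longest transcript was 53.7% for genes higher in all 4 groups, 41.1% for genes lower in all 4 and 47.4% for all tested genes. For genes whose treated and PBS libraries did not overlap it was 55.1% in the 164 that were higher and 40.0% in the 201 that were lower. The median log2 change ran from -0.27 in the genes of lowest GC content to 0.15 in those of highest, when the genes were split into 10 equal bins. After a correction of every library for GC content and length, made for 12794 genes (97.8%), it ran from 0.04 to -0.003. Of these 12794 genes, 3709 were higher in all 4 groups before the correction and 2332 of them remained so. Of 3448 lower ones 2096 did. With genes that gained 1 sign under the correction, 3462 were higher and 2927 lower in all 4 groups after it. The test then called 13 genes, 2 higher and 11 lower, including all 3 called without it. Without bortezomib 1, combination 1 and delayed combination 2 it called 48, 12 higher and 36 lower, again with all 3. Beside IER2 and NFKBIZ, 9 genes were called lower in both of these fits: DUSP2, JUN, RHOB, PDZRN4, H3F3B, HSPB1, HSPE1, SPERT and ADM. ADM, a peptide hormone of the hypoxia response, was at 126, 157 and 257 CPM in treated and 266, 289 and 306 CPM in PBS libraries. None of the 9 passed with all libraries and no correction. There the edgeR adjusted p was 0.208 for ADM, 0.224 for HSPB1, 0.187 for HSPE1 and 0.109 for SPERT.

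**Figure D5:**
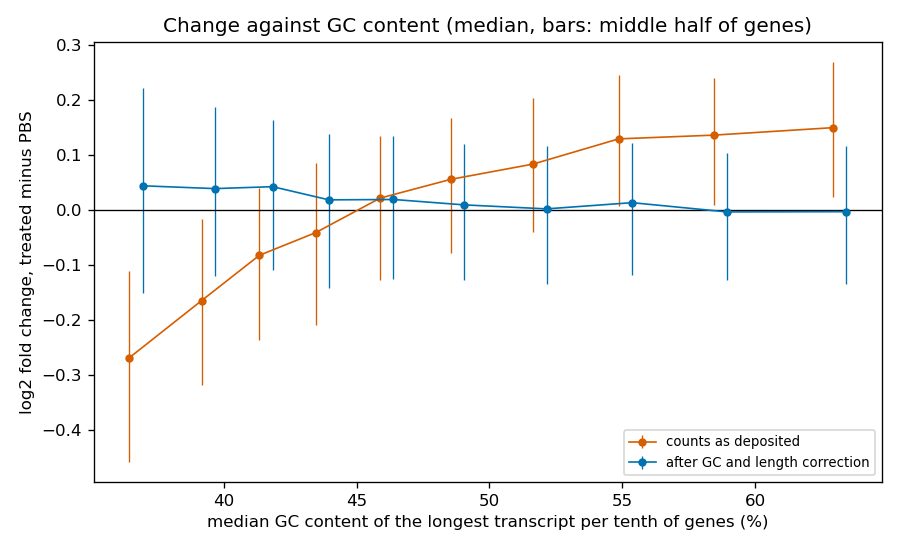
The horizontal axis gives the median GC content of each of 10 equal bins of tested genes, and the vertical axis the log2 fold change, treated minus PBS. Points are medians and bars run between the quartiles, for counts as deposited and after the GC and length correction. The deposited counts run from -0.27 to 0.15 and the corrected ones stay between -0.003 and 0.04.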

How the data were processed

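RNA of 15 bone marrow libraries was sequenced after ribosomal depletion with a stranded total RNA kit, per the labels' protocols. The deposited files give raw counts of reads for 57773 Ensembl IDs. STAR 2.5.4b, featureCounts 1.6.1 and GRCh37 are named in the submitters' processing notes. The strand setting, annotation release and handling of mouse reads are not stated. No label names a batch.

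GENCODE 29 gave symbols to 52338 IDs, and the other 5435 held 1.07% of the counts. Genes of mitochondrial DNA held 35.0% to 40.3%. In R 4.3.3, edgeR 4.0.16 fitted all 15 libraries with 1 coefficient per group (TMM, filterByExpr with a minimum count of 10, robust quasi-likelihood, common biological coefficient of variation 0.171). The contrast was the mean of the 4 treated coefficients minus PBS, and a second F test asked whether the 4 were equal. An adjusted p under 0.05 passed. Counts of every replicate pair differed by more than sampling noise.

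The members, the 44 gene lists (765 symbols, 12 not found) and the tests were chosen with earlier results of these data known. Genes were named by a rule: the 10 smallest p in each direction beside those past the threshold, up to 3 per list, 12 in every case, and the 5 smallest p among treated groups. Further list members stand as examples. Alternatives were DESeq2 1.42.0, its scaling in edgeR, voom from limma 3.58.1, other filters, thinned counts, the mean level of 50 host cell markers as a covariate, the replicate number as a block, left-out libraries or groups, and a loess correction for GC content and length (span 0.3). On simulated counts for the 13085 genes of treated against PBS, the test recovered 36% of changes of 1.5-fold and 88% at 4-fold. Of all its calls 2.17% were false. There each gene varied on its own, with the same change in all 4 treated groups and no GC trend. The real libraries differ along GC content, so these rates need not hold for them. A further simulation of 12794 genes had a GC trend and no changed gene. In it 0 genes were called, with or without the correction. Recovery of changes under such a trend was not simulated. Python 3.11.15, pandas 2.3.3 and matplotlib 3.10.9 made tables and plots.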

Additional observations from a re-analysis of the deposited data

Results flagged for a closer look

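Some genes were above the PBS mean in every library of one treated group and below it in every library of another. The differences were tested by edgeR's test among the 4 treated groups, and none passed. The groups given for a gene are the first to meet this rule, not always those furthest apart. After the GC and length correction FBXO32 was at 1.67 with elesclomol. ANKRD37 was then at -0.49 with elesclomol and 0.47 with the delayed combination. For FBXO32 the log2 change was 0.61 with bortezomib and -0.10 with the delayed combination (adjusted p among groups = 0.0878). For AC010719.1 it was 0.87 with the combination and -0.20 with bortezomib (adjusted p = 0.111). For FAT1 it was 0.52 with elesclomol and -0.11 with the delayed combination, and for ANKRD37 0.21 with the combination and -0.27 with bortezomib (adjusted p = 0.111 each). H1FX-AS1 was at 0.39 with bortezomib and -0.33 with the combination (adjusted p = 0.111). Among erythroid markers, the haem enzyme ALAS2 was at 1.603 with bortezomib and -0.80 with the delayed combination (adjusted p = 0.53), and the globin HBB at 0.239 and -0.655 in the same groups (adjusted p = 0.508). With elesclomol the log2 changes were 3.48 and 2.10, which rest on elesclomol 1. ALAS2 had 19.3 CPM there and 1.96 and 1.46 CPM in elesclomol 2 and 3, and HBB had 286 CPM there and 31.8 and 27.1 CPM in the other 2.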

How the results depend on the processing

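The count of 3 (1 higher, 2 lower) became 246 (97 and 149) with no filter on low counts, 8 (2 and 6) at a mean of at least 3 log2 CPM, 4 (1 and 3) with DESeq2's size factors, 56 (23 and 33) with DESeq2 and 1322 (594 and 728) with limma voom. It was 13 (2 and 11) with the GC and length correction, 12 (2 and 10) with that and the replicate block (added after seeing the data), and 48 (12 and 36) without the 3 GC-rich libraries. It was 0 with thinned libraries, the host marker covariate, the 12 as 1 group, a change of at least 1.5-fold, or without the elesclomol or the delayed combination group, 6 (1 and 5) without the bortezomib group and 13 (4 and 9) without the combination group. Leaving out 1 library gave 0 to 23 genes, 0 to 5 higher and 0 to 18 lower. It was 0 without PBS 1, 2 or 3, bortezomib 3, any elesclomol library, combination 3, or delayed combination 2 or 3, and 9, 23, 17 and 8 without bortezomib 1, combination 1, combination 2 and delayed combination 1. Fits with 0 had 1031 to 2010 genes at an unadjusted p under 0.05 (107 for the 1.5-fold test). The replicate block gave 4 (0 and 4), with NFKBIZ (adjusted p = 0.0144) but not IER2 or NXPE3 (0.0553 each). The numbers were not taken to pair the libraries: same-numbered ones correlated at -0.42 to 0.64 in their deviations, over 0.1 in 6 of 30 pairs, and 6 of 15 came closest to their own number. Bortezomib and combination alone had all 3 pairs over 0.1 (0.637, 0.502 and 0.109). Among treated groups, 0 became 348 with no filter, 66 with DESeq2, 98 with limma voom, 19 without the GC-rich libraries, 1 with the replicate block, with the correction or with both, and 0 to 28 without 1 library (28 without delayed combination 1, 12 without bortezomib 1). The cause of these shifts was not tested. IER2 stayed at -1.41 to -1.14, NFKBIZ at -1.13 to -0.86 and NXPE3 at 0.41 to 0.67 in all of these fits.

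Signs turned in 5 of the 59 named genes that were followed through all of these fits. Other list members were not followed in this way. BIRC5, for example, also turned sign with the GC and length correction, as given above. HBB was at -0.3549 with the host covariate and -0.3143 without the elesclomol group, and at -0.1974 (without elesclomol 1) to 0.4266 with 1 library left out. ALAS2 was at -0.2795 (without combination 3) to 1.448. H1FX-AS1 was at -0.03112 with the correction, -0.03953 with the block too, -0.00162 without the bortezomib group and -0.08498 without the elesclomol group. ANKRD37 was at 0.02599 with the correction, 0.02595 with the block too, 0.006541 with the 12 as 1 group, 0.02765 without the bortezomib group and 0.1206 without the elesclomol group, where FAT1 was at -0.002312.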

Other observations

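Genes of mitochondrial DNA were lower in all 4 groups in 7 of 15 and higher in 2, with a median log2 change of -0.17. Interferon-stimulated genes, which answer viral RNA, had a median of -0.16 over 20, lower in 4 and higher in 2, and it was 0.10 with elesclomol, -0.09 with bortezomib, -0.29 with the combination and -0.30 with the delayed combination. Autophagy and lysosome genes were higher in 11 of 21 and lower in 3 (median 0.15; 0.08 after the GC and length correction, with 7 higher and 1 lower), and NRF2 antioxidant genes higher in 9 of 17 and lower in 3 (median 0.14). No gene of these 4 lists passed the test against PBS. Over all genes, 28.8% were higher and 27% lower in all 4 groups.

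Among FOXO factors and targets, 6 of 15 were lower and 3 higher in all 4 groups (27% and 28.8% of all genes). The median was -0.01, or -0.05 corrected. SESN3, a stress-induced regulator of growth signalling, had 2.65, 6.13 and 10.2 CPM as lowest, median and highest in treated and 10.8, 10.1 and 14.4 CPM in PBS libraries (-0.96 ± 0.20, edgeR adjusted p = 0.105; -0.61 ± 0.15 corrected), while FBXO32 was at 0.64 ± 0.21. The stress-regulated gene SQSTM1, a cargo receptor of autophagy, was at 0.40 ± 0.12 (adjusted p = 0.268; 0.27 ± 0.08 corrected). CD79A, a B cell receptor component, had 10.4, 20.01 and 37.2 CPM in treated and 13.1, 11.4 and 10.7 CPM in PBS libraries, with the highest value in combination 1.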
